A study of Mus musculus with 4 samples.

Results

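Single-cell RNA sequencing of mouse islets after 6 h of cytokine exposure was used to follow 8 genes, *Defb1*, *Rgs4*, *Itgb8*, *Crispld2*, *Slc6a14*, *Ehf*, *Tnfrsf11b* and *Neurl3*. They were selected from the 31053 genes of the count tables because they led the increases in endocrine cells exposed to IL-1β, several being known from epithelia. The comparison of IL-1β with untreated cells therefore chose them, and is given below as a description. The comparison of IL-1β + IFN-γ with IFN-γ used neither of those libraries. It is not independent of the choice, since the genes were chosen with earlier results of these data known.

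The islets came from adult males of the C57BL/6 strain (C57BL6/J in the study's methods). A single pool, to which 8 animals contributed, supplied all 4 samples, of which one stayed untreated and the others received IL-1β, IFN-γ or IL-1β + IFN-γ (termed both) for 6 h. The labels name no transgene or deletion. Each sample gave 1 library, and without replicates no test between conditions could be made. The untreated, IL-1β, IFN-γ and both libraries held 50731370, 20056630, 31209339 and 25716645 UMIs (unique molecular identifiers, 1 for each captured transcript). Of 3486, 2911, 3694 and 2480 barcodes, 1521, 2018, 2122 and 1810 cells passed limits of 200 and 4000 on the number of genes and of 12% on the mitochondrial share. Their median UMIs were 15454, 7462.5, 9615 and 11123.5, deepest in the untreated library. Any pair of libraries shared 1 to 4 barcodes.

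Cells were called β-like, α-like, δ-like or PP-like from the hormones' share of their UMIs, and the non-endocrine classes from marker genes. None of the 8 genes entered these calls. In that order of libraries there were 1170, 1123, 1256 and 1255 β-like cells, 89, 334, 296 and 167 α-like cells, and 66, 165, 185 and 121 δ-like cells. The defining markers followed the classes, with *Mafa* at 346 CPM (the UMIs of a gene per 1000000 UMIs) in β-like cells and 1.99 CPM in α-like cells, and *Hhex* at 184 CPM in δ-like cells and 0.204 CPM in β-like cells. Hormones took 42.3% of the UMIs of untreated β-like cells and 22.4%, 28.9% and 33.7% in the IL-1β, IFN-γ and both libraries. A smaller hormone share raises the CPM of every other gene. The median gene of β-like cells was at 1.35 times its untreated CPM under IL-1β and at 0.799 times its IL-1β CPM under both.

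IL-1β binds its receptor on β cells and, through MyD88 adaptors, activates NF-κB and stress kinases that feed AP-1. IFN-γ acts through its own receptor and JAK kinases. Among the secreted products, *Defb1* encodes a β-defensin, a small antimicrobial peptide of epithelial surfaces, *Crispld2* encodes a secreted protein with CRISP and LCCL domains, and *Tnfrsf11b* encodes osteoprotegerin, a soluble decoy receptor for RANKL and TRAIL. At the membrane, *Itgb8* encodes the integrin chain that pairs with αv to bind latent TGF-β, and *Slc6a14* encodes a sodium- and chloride-coupled transporter of neutral and cationic amino acids. *Rgs4* encodes a GTPase activator that shortens Gi and Gq signaling, *Ehf* an ETS transcription factor of epithelia, and *Neurl3* an E3 ubiquitin ligase with a neuralized domain.

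The name given to these genes was set against the ductal-like cells, the duct epithelium present among the islets, which had *Krt19* at 941 CPM and *Epcam* at 2853 CPM. In the 11 untreated ductal-like cells (87097 UMIs), *Ehf* was at 264 CPM (95% interval 167 to 396), and *Tnfrsf11b* and *Neurl3* were each at 45.9 CPM (12.5 to 118). No UMI of *Defb1*, *Rgs4*, *Crispld2*, *Itgb8* or *Slc6a14* was found there, which allows up to 34.4 CPM. That limit lies above the untreated β-like levels of *Defb1* (24.6 CPM), *Itgb8* (16.4 CPM) and *Crispld2* (0.101 CPM), and *Slc6a14* had no UMI in those cells. Only *Rgs4*, at 37.7 CPM in them, was above the limit. Over all 49 ductal-like cells *Rgs4* and *Crispld2* were without a UMI, *Defb1* and *Slc6a14* had 1 each, and *Itgb8* had 4, or 9.05 CPM. *Neurl3* was also present in untreated endothelial-like and macrophage-like cells, at 46.1 and 167 CPM. The genes are called the IL-1β-induced genes below.

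Sequence before the start was available in the RefSeq promoter table (GRCm38.p6) for 5 of the 8 genes, *Neurl3*, *Rgs4*, *Crispld2*, *Itgb8* and *Slc6a14*. The 250 bases before each start were searched on both strands for the NF-κB consensus of the immunoglobulin κ enhancer and a looser form with its middle bases free, for TGANTCA (AP-1), for TTCNNNGAA (STAT) and for TATAAA (the TATA box). The 3 genes with a match are shown, as sequence before the RefSeq start, and capitals mark the match. The *Neurl3* line is limited to the bases around the NF-κB match, since these lie in an annotated exon, and the *Slc6a14* line stops before its annotated exon.
Neurl3, chr1:36273516-36273545, minus strand: gaggtcatggGGAAAGTCCCggatatcgtc
Rgs4, chr1:169747643-169747892, minus strand: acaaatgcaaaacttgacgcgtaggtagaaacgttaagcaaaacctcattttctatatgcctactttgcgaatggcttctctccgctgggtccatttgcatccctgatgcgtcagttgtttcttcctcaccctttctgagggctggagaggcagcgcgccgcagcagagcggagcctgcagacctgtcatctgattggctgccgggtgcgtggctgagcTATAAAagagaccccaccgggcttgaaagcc
Slc6a14, chrX:21714650-21714895, plus strand: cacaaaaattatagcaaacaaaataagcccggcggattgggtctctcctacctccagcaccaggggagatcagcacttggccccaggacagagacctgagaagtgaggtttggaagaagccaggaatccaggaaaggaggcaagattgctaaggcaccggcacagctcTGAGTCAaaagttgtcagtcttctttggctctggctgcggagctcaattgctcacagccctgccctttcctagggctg

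The *Neurl3* match is the NF-κB consensus read on the other strand, from 110 to 101 bases before the start. Of 32851 promoters of the same length, 0.140% held this consensus and 1.41% its looser form, which contains it. The *Slc6a14* match, TGAGTCA, lies 82 to 76 bases before the start, and 6.75% of promoters held this motif. The TATA box was found in *Rgs4* from 31 to 26 and in *Neurl3* from 39 to 34 bases before the start, as in 12.4% of promoters. The *Neurl3* start of this table lies inside an annotated exon of other transcripts, which covers 158 of the 250 bases searched, both matches included. The STAT motif was in none of the 5, against 7.02% of promoters, and *Crispld2* and *Itgb8* had no match to any of these motifs, although all 250 bases of the *Itgb8* window lie in annotated exons. A match is a description of the letters only.

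*Defb1* (ENSMUSG00000044748; GRCm38 chromosome 8, 21776599 to 21795185) was at 24.6 CPM (22.4 to 26.8) in untreated β-like cells, 991 CPM (971 to 1011) under IL-1β, 58.4 CPM (54.4 to 62.5) under IFN-γ and 845 CPM (831 to 860) under both. The libraries with IL-1β were far above those without it, and the intervals of the 4 levels did not overlap. *Defb1* was 40.3-fold higher under IL-1β than in untreated cells, and 14.5-fold (13.5 to 15.6) higher under both than under IFN-γ. Intervals throughout are 95% intervals of counting error, and do not cover the variation between islets or libraries. *Defb1* had a UMI in 27.7% (25.1 to 30.4) of untreated β-like cells and 81.7% (79.3 to 83.9) of those given IL-1β. The corresponding shares were 32.2% (29.6 to 34.8) for IFN-γ and 89.2% (87.3 to 90.8) for both. With every cell thinned to 4000 UMIs the shares were 9.60%, 74.9%, 17.4% and 76.3%, and the gap between the IL-1β and both libraries narrowed. The thinning left out 35, 74, 50 and 31 shallower β-like cells. In macrophage-like cells *Defb1* was found in 0 of 34, 0 of 37, 1 of 41 and 1 of 29 cells, below the β-like shares. The median depth was 17220.5, 8327, 11101 and 12209 UMIs in β-like and 9866.5, 5170, 8441 and 9484 UMIs in macrophage-like cells.

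*Crispld2* (ENSMUSG00000031825; chromosome 8, 119992438 to 120052793) was nearly absent from β-like cells without IL-1β, with 2 UMIs in the untreated and 2 in the IFN-γ library. It had 376 UMIs under IL-1β and 408 under both, or 39.3 CPM (35.4 to 43.5) and 26.4 CPM (23.9 to 29.1). It was 184-fold higher under both than under IFN-γ, with an interval of 50.6 to 1525 because of the few UMIs without IL-1β. A UMI was found in 13.3% (11.3 to 15.4) of IL-1β-treated cells and 9.72% (8.14 to 11.5) under both, so most β-like cells had none. At 4000 UMIs these shares were 8.39% and 5.39%. Gm20388 and Gm15684, annotated genes that overlap *Crispld2*, had 0 UMIs in β-like cells of any library.

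*Tnfrsf11b* (ENSMUSG00000063727; chromosome 15, 54250619 to 54278484) was at 1.36 CPM (0.896 to 1.98) in untreated β-like cells, 70.6 CPM (65.4 to 76.1) under IL-1β, 2.94 CPM (2.11 to 3.99) under IFN-γ and 56.4 CPM (52.7 to 60.3) under both. Both libraries with IL-1β stood far above both without it. *Tnfrsf11b* was 19.2-fold (14.0 to 26.9) higher under both than under IFN-γ. In cells thinned to 4000 UMIs the share with a UMI was 17.5% (15.3 to 20) under IL-1β and 17.0% (14.9 to 19.2) under both, a difference within the intervals.

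*Itgb8* (ENSMUSG00000025321; chromosome 12, 119158022 to 119238802) was already present in untreated β-like cells at 16.4 CPM (14.7 to 18.3). It was at 91.5 CPM (85.5 to 97.8) under IL-1β, 18.0 CPM (15.8 to 20.4) under IFN-γ and 38.6 CPM (35.6 to 41.8) under both. The untreated and IFN-γ levels lay within each other's interval, and the level with both was clearly below that with IL-1β. Its ratio of both to IFN-γ, 2.15 (1.85 to 2.50), was the smallest of the 8. In cells thinned to 4000 UMIs the share with a UMI was 29.6% for IL-1β and 13.2% for both, beside 6.52% untreated and 7.21% for IFN-γ.

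*Slc6a14* (ENSMUSG00000031089; chromosome X, 21714896 to 21742355) had no UMI in untreated β-like cells, which allows up to 0.151 CPM. It was at 31.1 CPM (27.7 to 34.9) under IL-1β, 0.430 CPM (0.158 to 0.936) under IFN-γ and 15.8 CPM (13.9 to 18.0) under both. It was at least 206-fold higher under IL-1β than in untreated cells, against a floor of 3 UMIs in the untreated library. That bound was 49.8-fold after thinning to 4000 UMIs. With no upper limit on genes, where 1 untreated UMI was counted, the ratio was 1216. Under both it was 36.8-fold (16.7 to 101) above IFN-γ alone. A UMI was found in 12.5% (10.6 to 14.5) of the cells given IL-1β, and in 8.39% after thinning, beside 4.58% for both.

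*Rgs4* (ENSMUSG00000038530; chromosome 1, 169741477 to 169747642) was at 37.7 CPM (35.1 to 40.5) in untreated β-like cells, 487 CPM (473 to 502) under IL-1β, 66.0 CPM (61.8 to 70.5) under IFN-γ and 229 CPM (221 to 236) under both. The order IL-1β, both, IFN-γ, untreated had no overlap between neighbours. Thinned to 4000 UMIs, 63.3% (60.3 to 66.2) of β-like cells had a UMI of *Rgs4* with IL-1β and 43.5% (40.7 to 46.3) under both. The ratio of both to IFN-γ was 3.46 (3.22 to 3.73).

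*Ehf* (ENSMUSG00000012350; chromosome 2, 103263433 to 103303278) was at 1.71 CPM (1.19 to 2.39) in untreated and 1.79 CPM (1.16 to 2.65) in IFN-γ-treated β-like cells, which did not differ beyond their intervals. It was at 56.1 CPM (51.4 to 61.0) under IL-1β and 33.1 CPM (30.2 to 36.0) under both. *Ehf* was 18.4-fold (12.3 to 28.8) higher under both than under IFN-γ. A UMI was found in 2.39% (1.60 to 3.44) of untreated and 32.5% (29.8 to 35.3) of IL-1β-treated β-like cells. After thinning the shares were 0.441% and 17.5%, with 10.9% for both.

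*Neurl3* (ENSMUSG00000047180; chromosome 1, 36264597 to 36274679) followed another order. It was at 0.201 CPM (0.0549 to 0.515) in untreated β-like cells, 20.3 CPM (17.5 to 23.3) under IL-1β, 1.43 CPM (0.876 to 2.21) under IFN-γ and 123 CPM (118 to 129) under both, so that the combination stood far above either cytokine alone. The ratio of both to IFN-γ was 86.1 (55.6 to 141). It lay between 53.6 and 137 under the alternatives, lowest with no upper limit on genes. Thinned to 4000 UMIs, 6.48% (5.07 to 8.15) of β-like cells had a *Neurl3* UMI with IL-1β and 23.6% (21.3 to 26.1) under both.

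**Figure D1:**
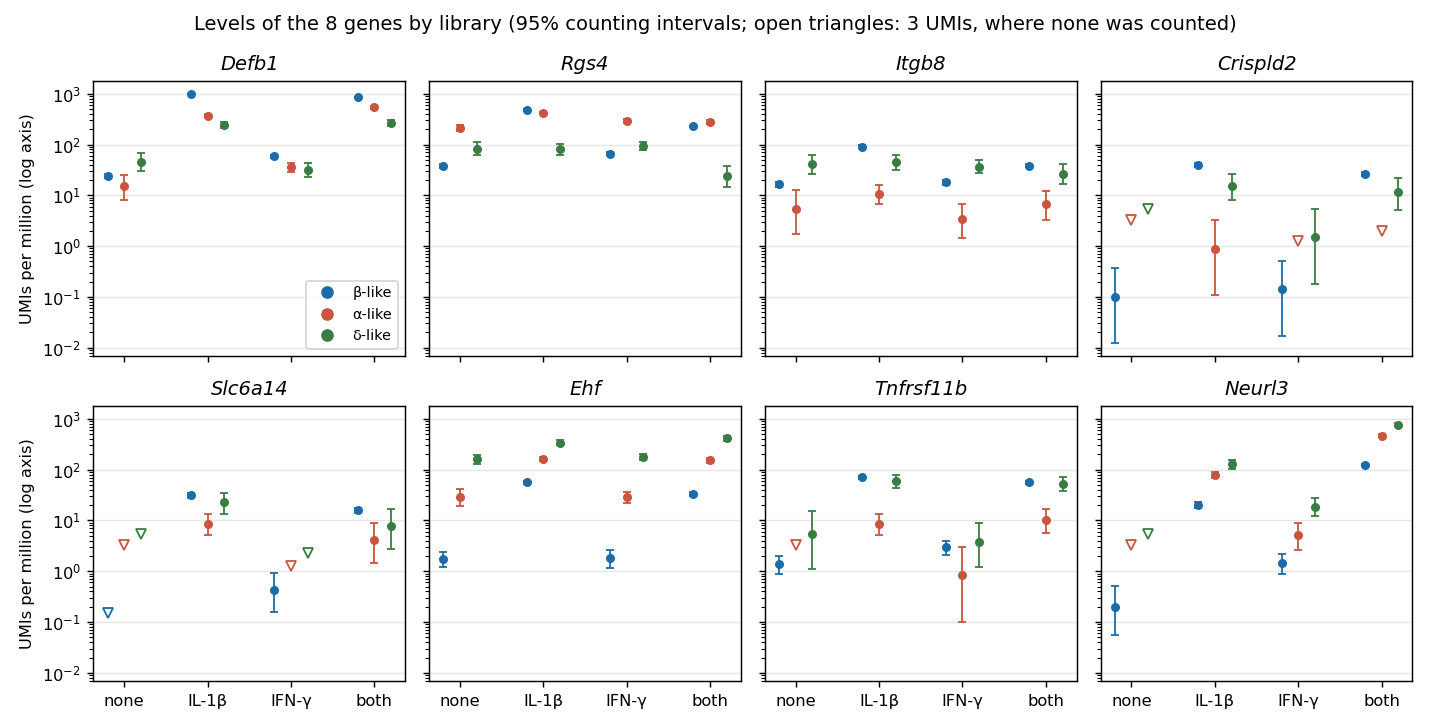
Levels of the 8 genes in CPM on a log axis, by library (none, IL-1β, IFN-γ, both) in β-like (blue), α-like (red) and δ-like (green) cells. Points are summed UMIs of 1 library with 95% counting intervals, and open triangles mark 3 UMIs where none was counted. *Neurl3* is the only panel in which all 3 classes are highest with both cytokines by a wide gap, and *Rgs4* in δ-like cells is lowest there.

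All 8 genes were at least 2-fold higher with IL-1β than in untreated β-like cells, the contrast that chose them, where 17.8% of 7944 genes at 10 CPM or more were so and 3.63% were at least 2-fold lower. The lowest ratios were 5.58 for *Itgb8* and 12.9 for *Rgs4*. That of *Crispld2*, 390 (107 to 3233), rests on 2 untreated UMIs, and that of *Slc6a14* is a bound. The *Crispld2* ratio lay between 98.7 and 413 under the alternatives, lowest with no upper limit on genes. All 8 were also at least 2-fold higher with both than with IFN-γ, where 5.56% of 7986 genes were higher and 10.0% lower. Of the 8, *Defb1*, *Rgs4* and *Itgb8* were above 10 CPM without IL-1β. The other 5 were below it in the untreated and IFN-γ libraries and passed the level only through a library with IL-1β, so they had to differ, and nothing is read from the count. The 3 genes above that level had ratios of both to IFN-γ of 14.5, 3.46 and 2.15, and the median gene was at 0.851. *Itgb8* was at 1.91-fold after thinning to 4000 UMIs, which left 7 of the 8. With both against untreated cells, which shares the untreated library, the 8 were again at least 2-fold higher, against 12% of genes higher and 7.27% lower. The median gene was at 1.08.

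With IFN-γ alone the differences were smaller. Of the 3 that reached 10 CPM in the untreated or IFN-γ library, *Defb1* was 2.38-fold (2.12 to 2.66) higher, *Rgs4* 1.75-fold (1.59 to 1.93) and *Itgb8* 1.10-fold (0.927 to 1.30). Only *Defb1* passed 2-fold, which 4.15% of genes did upward and 0.129% downward. Scaled by the median of the gene-wise ratios or with hormones left out of the totals, *Defb1* was at 1.90-fold and 1.93-fold. *Neurl3*, below that level, had 4 UMIs in untreated and 20 in IFN-γ-treated β-like cells, a ratio of 7.12 (2.39 to 28.7), which was 1.56 with every cell weighted equally. *Tnfrsf11b* had 27 and 41 UMIs, a ratio of 2.16 (1.30 to 3.66), which lay between 1.0 and 7.06 under the alternatives and below 2 in 4 of them. *Slc6a14* had 0 and 6 UMIs, at least 2.85-fold, and at least 1.98-fold with every cell weighted equally.

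**Figure D2:**
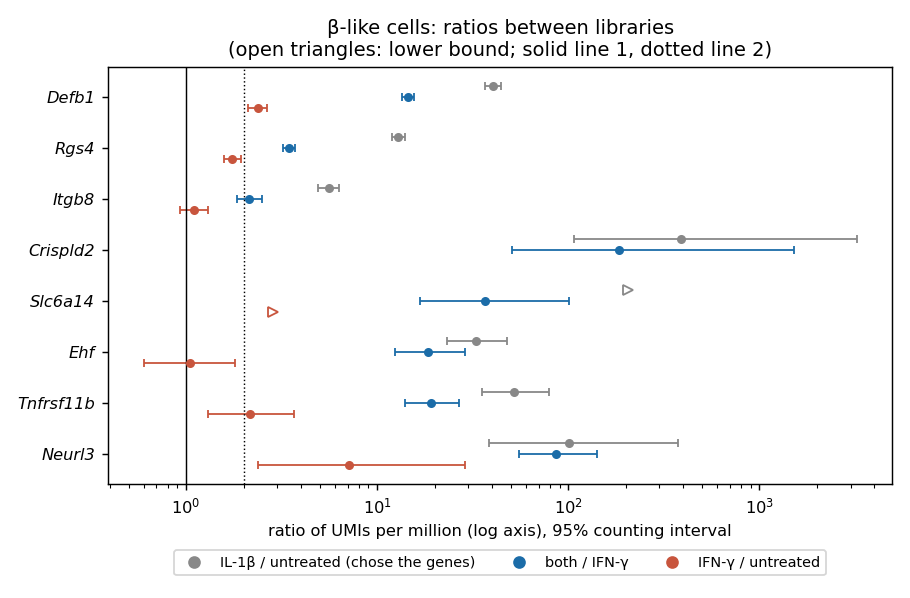
Ratios of CPM between libraries in β-like cells, on a log axis with 95% counting intervals. Gray is IL-1β over untreated, which chose the genes, blue is both over IFN-γ and red is IFN-γ over untreated. Every blue point lies to the right of the dotted line at 2, from 2.15 for *Itgb8* (1.91 after thinning) to 184 for *Crispld2*, while red points lie near 1 to 3 except *Neurl3* at 7.12.

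Addition of IFN-γ to IL-1β divided the genes. In β-like cells *Neurl3* was 6.09-fold (5.25 to 7.10) higher with both than with IL-1β, the only one of the 8 with a ratio above 1. *Itgb8* at 0.422 (0.380 to 0.469) and *Rgs4* at 0.469 (0.449 to 0.490) were at least 2-fold lower. *Slc6a14* at 0.509 (0.428 to 0.605), *Ehf* at 0.589 (0.521 to 0.666), *Crispld2* at 0.672 (0.583 to 0.775), *Tnfrsf11b* at 0.799 (0.722 to 0.885) and *Defb1* at 0.853 (0.831 to 0.876) were lower by less. Among 7773 genes 2.41% were at least 2-fold higher and 4.88% lower, and the median gene was at 0.799. Relative to that median, *Defb1* was at 1.07, *Tnfrsf11b* at 1.0 and *Crispld2* at 0.841. *Itgb8* at 0.528, *Rgs4* at 0.587, *Slc6a14* at 0.637 and *Ehf* at 0.738 stayed below 1 on this scale, and none of them then passed 2-fold. This comparison shares the IL-1β library with the one that chose the genes.

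**Figure D3:**
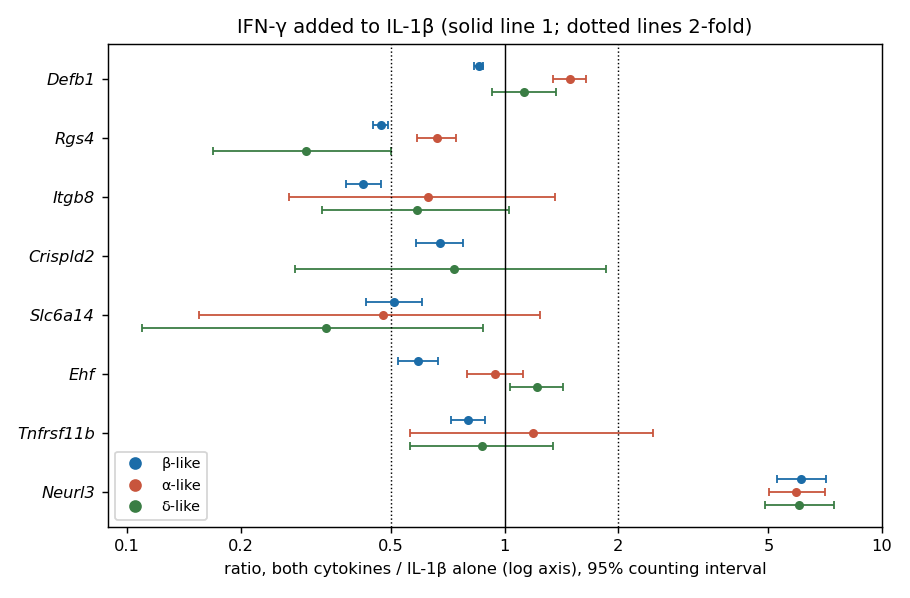
Ratio of CPM with both cytokines over IL-1β alone, on a log axis with 95% counting intervals, in β-like (blue), α-like (red) and δ-like (green) cells. *Neurl3* stands at about the same ratio in the 3 classes (6.09, 5.93 and 6.03), and *Rgs4* lies to the left of 1 in each of them (0.469, 0.660 and 0.297).

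α-like cells are among the endocrine cells in which the genes led with IL-1β, so their IL-1β levels are a description here as well. *Defb1* was at 15.1 CPM (8.26 to 25.4) in untreated α-like cells, 368 CPM (343 to 394) under IL-1β, 35.8 CPM (28.6 to 44.3) under IFN-γ and 546 CPM (509 to 585) under both. *Ehf* stood at 29.1 CPM (19.2 to 42.4) untreated, 161 CPM (145 to 179) under IL-1β, 28.7 CPM (22.3 to 36.3) under IFN-γ and 152 CPM (133 to 173) under both. *Neurl3* had no UMI in untreated α-like cells, which allows up to 3.24 CPM, and was at 78.3 CPM (67.1 to 90.7) under IL-1β, 5.06 CPM (2.61 to 8.84) under IFN-γ and 464 CPM (430 to 500) under both. For these 3 genes both libraries with IL-1β stood above both without it, as in β-like cells. *Rgs4* was already at 216 CPM (187 to 248) in untreated α-like cells and reached 418 CPM (391 to 445) under IL-1β, a 1.93-fold (1.66 to 2.27) change. With both it was at 276 CPM (250 to 304), within the interval of IFN-γ alone at 292 CPM (271 to 315). *Crispld2* had 2 UMIs under IL-1β and none in the other libraries, and *Slc6a14* and *Tnfrsf11b* had 19 UMIs each with IL-1β, or 8.50 CPM (5.12 to 13.3). *Itgb8* had 5, 24, 8 and 10 UMIs in the 4 libraries.

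Of the genes at 10 CPM or more in either α-like library, 3 of 5 were at least 2-fold higher with IL-1β than untreated (8.68% of all genes), 1 of 3 with IFN-γ than untreated (*Defb1*, 5.82%), and 4 of 5 with both than with IFN-γ (6.48%). The 4 were *Defb1* at 15.2-fold (12.2 to 19.3), *Ehf* at 5.30-fold (4.03 to 7.06), *Tnfrsf11b* at 12-fold (2.78 to 108) and *Neurl3* at 91.7-fold (52.2 to 178), and *Rgs4* was at 0.944 (0.833 to 1.07). *Tnfrsf11b* (0.843 CPM under IFN-γ) and *Neurl3* (5.06 CPM) passed the level only through the library with both, and *Itgb8* and *Neurl3* only through the IL-1β library in the first of these comparisons. That first comparison is the treatment that chose the genes. With both against IL-1β, *Neurl3* was 5.93-fold (5.02 to 7.04) higher, the only 1 of 6 past 2-fold, as were 4.49% of genes. *Defb1* was 1.49-fold (1.35 to 1.64) higher in that comparison in α-like cells, beside the ratio of 0.853 in β-like cells. Relative to the median gene of each class, these ratios were 1.61 and 1.07. The median gene was at 0.836 with both against IFN-γ and 0.926 with both against IL-1β. The untreated library held only 926556 UMIs of α-like cells, which limits its low levels.

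In δ-like cells *Ehf* was present without IL-1β, at 162 CPM (130 to 198) in the untreated library, 342 CPM (303 to 384) under IL-1β, 176 CPM (154 to 200) under IFN-γ and 415 CPM (371 to 463) under both. The libraries without IL-1β did not differ from each other beyond their intervals, and lay below those with it. *Neurl3* had no UMI in the untreated library (up to 5.32 CPM) and was at 128 CPM (105 to 154) under IL-1β, 18.8 CPM (12.1 to 27.7) under IFN-γ and 770 CPM (710 to 834) under both. *Defb1* was at 46.1 CPM (30.1 to 67.6), 241 CPM (209 to 277), 31.5 CPM (22.7 to 42.6) and 272 CPM (236 to 311). *Tnfrsf11b*, the osteoprotegerin gene, was at 5.32 CPM (1.10 to 15.6), 59.7 CPM (44.3 to 78.7), 3.75 CPM (1.22 to 8.76) and 52.0 CPM (37.3 to 70.6). These 4 genes were higher in both libraries with IL-1β. *Itgb8* was between 26.7 and 45.4 CPM in every library, with overlapping intervals.

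*Rgs4* was lowest with both cytokines in δ-like cells. It was at 83.4 CPM (61.3 to 111) in untreated, 81.2 CPM (63.1 to 103) in IL-1β-treated and 92.3 CPM (76.7 to 110) in IFN-γ-treated δ-like cells, and at 24.1 CPM (14.5 to 37.7) under both. Each cytokine alone left the level within the interval of untreated cells, and the combination lay below all 3. The ratio of both to IFN-γ was 0.261 (0.152 to 0.425) in δ-like cells, beside 3.46 (3.22 to 3.73) in β-like cells. *Rgs4* had a UMI in 34.8% (23.5 to 47.6) of untreated, 21.8% (15.8 to 28.9) of IL-1β-treated, 37.3% (30.3 to 44.7) of IFN-γ-treated and 10.7% (5.85 to 17.7) of δ-like cells with both. Thinned to 4000 UMIs, these shares were 27.4%, 16.4%, 25.7% and 8.65%. The difference between the cell classes was not tested. δ-like cells carried much other hormone RNA: a somatostatin share of at least 95% of hormone UMIs was reached by 1 of 66, 22 of 165, 20 of 185 and 18 of 121 cells, with 0, 15, 5 and 0 *Rgs4* UMIs.

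Counted over δ-like cells, 6 of 8 genes were at least 2-fold higher with IL-1β than untreated (11.6% of all genes), and 1 of 5, *Neurl3*, with IFN-γ than untreated (5.67%). The first of these is the treatment that chose the genes, and *Crispld2*, *Slc6a14*, *Neurl3* (each with 0 untreated UMIs) and *Tnfrsf11b* (5.32 CPM) passed the level only through the IL-1β library. After thinning, *Ehf* fell just below 2-fold and *Crispld2* from a bound of 2.92 to one of 1.19. *Neurl3* likewise passed the second only through the IFN-γ library, and its ratio is a bound, which fell from 3.52 to 1.49 after thinning. With both against IFN-γ, 5 of 7 were higher (10.6%) and *Rgs4* was lower (16.7%), *Crispld2* and *Tnfrsf11b* having passed only through the library with both. With both against IL-1β, *Neurl3* at 6.03-fold (4.90 to 7.48) was higher (7.36%), and *Rgs4* at 0.297 (0.169 to 0.50) and *Slc6a14* at 0.336 (0.110 to 0.874) were lower (12.2%), *Slc6a14* having passed the level only through the IL-1β library, with 19 UMIs beside 6. *Ehf* was at 1.22 (1.03 to 1.43) there, beside 0.589 in β-like cells, and at 0.991 in δ-like cells with a somatostatin share of at least 95% of hormone UMIs. The median gene of δ-like cells was at 0.894 in that comparison and 0.904 with both against IFN-γ. The 12 ductal markers summed to 2540, 4977, 2681 and 4299 CPM in the δ-like cells of the 4 libraries, with 8, 8, 8 and 10 above 0, *Epcam* leading in the untreated library (939 CPM) and *Clu* in the others (2335 CPM under IL-1β). In α-like cells they summed to 3501, 10770, 4361 and 5911 CPM, with *Spp1* leading at 2350 CPM untreated and 9203 CPM under IL-1β and 7, 11, 7 and 10 above 0. Over the 4 libraries *Krt19* was at 1.14 CPM, *Sox9* at 19.6 CPM and *Cftr* at 0.284 CPM in δ-like cells. In α-like cells these were at 1.71, 1.42 and 0 CPM, and in ductal-like cells at 941, 269 and 6.79 CPM. The 9 endothelial markers summed to 148 CPM in δ-like cells with IL-1β (9 of 9 above 0, *Flt1* the most abundant at 44.2 CPM) and to 23.1, 21.8 and 19.0 CPM in the untreated, IFN-γ and both libraries. The part of these markers in the α-like and δ-like values was not tested.

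PP-like cells were few, with 24, 22, 51 and 43 cells. *Defb1* was at 8.95 CPM from 3 UMIs in the untreated, 466 CPM in the IL-1β, 74.2 CPM in the IFN-γ and 536 CPM in the both library. *Neurl3* had 0, 17, 11 and 324 UMIs, and *Ehf* 5, 29, 10 and 54 UMIs. *Tnfrsf11b* had no UMI in any PP-like cell.

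Outside the endocrine cells the 8 genes parted. *Neurl3* was at 46.1 CPM (18.5 to 94.9) in untreated endothelial-like cells, 75.6 CPM (34.6 to 144) under IL-1β, 519 CPM (421 to 632) under IFN-γ and 756 CPM (604 to 935) under both. In these cells, unlike in β-like cells, the interval of the IFN-γ library overlapped that of both, and the IL-1β interval that of untreated cells. In ductal-like cells *Neurl3* was at 45.9 CPM (12.5 to 118), 190 CPM (109 to 309), 363 CPM (287 to 453) and 808 CPM (589 to 1081). In macrophage-like cells it was at 167 CPM (124 to 220) untreated, 110 CPM (69.7 to 165) under IL-1β, 71.0 CPM (45.0 to 107) under IFN-γ and 86.4 CPM (54.8 to 130) under both. That was highest without treatment, although the untreated interval overlapped those of IL-1β and of both. In mesenchymal-like cells *Neurl3* had 0, 4, 8 and 37 UMIs.

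*Ehf* had no UMI in 105 endothelial-like, 66 mesenchymal-like and 141 macrophage-like cells, and 5 UMIs in 51 acinar-like cells. Its ductal levels were 264, 321, 191 and 359 CPM, with overlapping intervals. *Tnfrsf11b* in ductal-like cells was at 45.9 CPM (12.5 to 118), 190 CPM (109 to 309), 41.9 CPM (19.1 to 79.5) and 89.8 CPM (29.1 to 209). It was highest with IL-1β, although that interval overlapped those of the untreated library and of both. *Crispld2* had 0, 9, 5 and 7 UMIs in mesenchymal-like cells. *Rgs4* had 9, 7, 1 and 0 UMIs there, from 12, 23, 20 and 11 cells. *Defb1* had 3 UMIs in all over the ductal-like, endothelial-like, mesenchymal-like and macrophage-like cells. In acinar-like cells it had 4, 9, 1 and 5 UMIs, or 39.8 CPM (10.9 to 102), 120 CPM (54.9 to 228), 12.8 CPM (0.324 to 71.4) and 132 CPM (42.8 to 308), found in 1 of 7, 5 of 13, 1 of 20 and 4 of 11 cells.

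**Figure D4:**
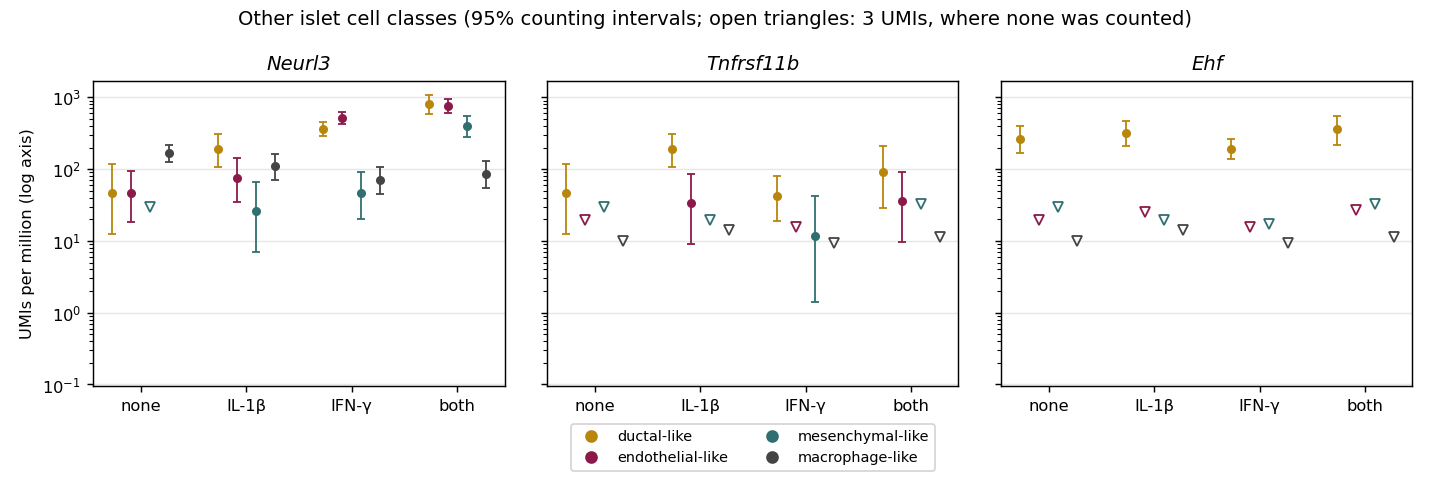
Levels of *Neurl3*, *Tnfrsf11b* and *Ehf* in CPM on a log axis in ductal-like, endothelial-like, mesenchymal-like and macrophage-like cells, by library, with 95% counting intervals. Open triangles mark 3 UMIs where none was counted. *Neurl3* ranges from 46.1 to 756 CPM in endothelial-like cells and stays between 71.0 and 167 CPM in macrophage-like cells, and *Ehf* has points in the ductal-like class alone.

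Markers of other cells were also read in β-like cells. The 12 ductal markers summed to 619 CPM in untreated, 1015 CPM in IL-1β-treated, 688 CPM in IFN-γ-treated and 981 CPM in β-like cells with both, with 9 or 10 of the 12 above 0. *Krt7* (203 CPM untreated) or *Krt18* (302 CPM under both) was the most abundant. Over the 4 libraries *Krt8* was at 168 CPM, *Epcam* at 138 CPM and *Clu* at 55.8 CPM. *Krt19* at 1.77 CPM, *Sox9* at 0.170 CPM and *Cftr* at 0 were at or near 0 in β-like cells, although *Cftr* was at only 6.79 CPM in ductal-like cells. The 10 macrophage markers summed to 89.8, 51.7, 48.2 and 149 CPM, of which *C1qa* alone was 71.1, 36.5, 40.4 and 137 CPM. Over the 4 libraries *C1qb* was at 0.748 CPM beside 75.5 CPM of *C1qa*, whereas macrophage-like cells had 4750 and 4035 CPM. The 9 endothelial markers to 6.54, 16.9, 6.53 and 8.93 CPM, and the 9 mesenchymal markers to 0.956, 3.45, 5.95 and 1.36 CPM. The 11 acinar markers summed to 85.8, 17.4, 88.0 and 411 CPM, with *Ctrb1* leading, highest in the library with both cytokines. The part of these markers in the β-like values was not tested.

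In single β-like cells thinned to 4000 UMIs, none of the 8 genes was detected in 72.7% (70.0 to 75.3) of untreated and 61.2% (58.4 to 64.0) of IFN-γ-treated cells. With IL-1β this share was 6.67% (5.24 to 8.36) and with both 8.25% (6.77 to 9.94). The median β-like cell had a UMI of 2 of the 8 genes in either library with IL-1β, and of 0 in either library without it. At least 4 of the 8 were found in 13.3% (11.3 to 15.5) of cells with IL-1β and 7.03% (5.66 to 8.60) under both, and in 0 of 1135 untreated cells, which allows up to 0.324%. The largest number in 1 cell was 6 of 8, in both libraries with IL-1β. The genes were chosen for their rise with IL-1β, so nothing is read from the shift between libraries.

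**Figure D5:**
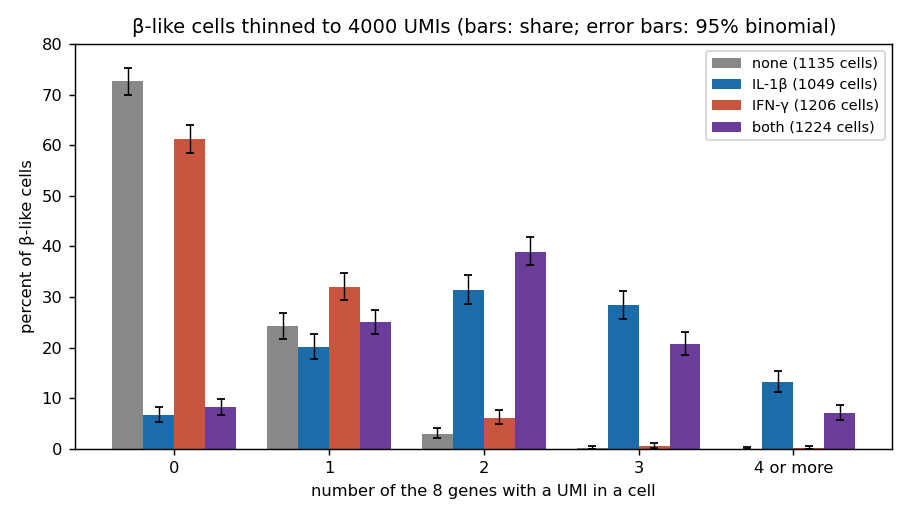
Share of β-like cells (percent) by the number of the 8 genes with a UMI, after thinning each cell to 4000 UMIs. Bars are the 4 libraries and error bars 95% binomial intervals. Most cells without IL-1β sit at 0 (72.7% untreated, 61.2% IFN-γ), and the peak moves to 2 genes with IL-1β (31.5%) and with both (39.0%). The genes were chosen for their rise with IL-1β, so nothing is read from this shift.

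The genes were unevenly spread over β-like cells with and without *Nos2*, which encodes inducible nitric oxide synthase. With both cytokines, *Defb1* was detected in 83.0% (80.1 to 85.7) of cells with a *Nos2* UMI and 66.2% (61.8 to 70.4) of those without, in cells thinned to equal depth. The shares were 28.0% (24.8 to 31.4) and 17.0% (13.8 to 20.6) for *Neurl3*, 20.5% (17.7 to 23.6) and 11.7% (8.97 to 14.9) for *Tnfrsf11b*, and 7.07% (5.32 to 9.16) and 2.87% (1.58 to 4.77) for *Crispld2*. *Rgs4*, at 42.7% (39.1 to 46.3) and 44.7% (40.2 to 49.2), and *Ehf*, at 11% (8.84 to 13.5) and 10.9% (8.24 to 14.0), showed no such gap. *Itgb8*, at 15.4% and 9.84%, and *Slc6a14*, at 5.71% and 2.87%, were higher with a *Nos2* UMI, with overlapping intervals. Cells of 1 library are not replicates, and these shares are descriptions of that library. With IL-1β alone *Defb1* was found in 88.3% (83.6 to 92.0) of *Nos2*-positive and 70.8% (67.5 to 74.0) of *Nos2*-negative β-like cells, and *Crispld2* in 14.2% (10.1 to 19.2) and 6.61% (4.99 to 8.56). The shares there were also apart for *Itgb8* (37.7% and 27.2%), *Slc6a14* (13.0% and 6.98%) and *Neurl3* (10.9% and 5.11%). Those of *Rgs4* (66.8% and 62.2%), *Ehf* (20.2% and 16.7%) and *Tnfrsf11b* (22.7% and 16.0%) had overlapping intervals.

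Cells rich in *Hspa1a*, a heat shock chaperone, had lower shares for several of the 8 genes in the IL-1β library. Among IL-1β-treated β-like cells, *Defb1* was detected in 41.8% (30.8 to 53.4) of 79 cells with at least 10 *Hspa1a* UMIs per 10000 and in 77.6% (74.9 to 80.2) of the other 970. *Rgs4* was found in 31.6% (21.6 to 43.1) and 65.9% (62.8 to 68.9). *Crispld2* and *Slc6a14* were found in 0 of the 79, which allows up to 4.56% of cells with a UMI at this depth, and each in 9.07% (7.34 to 11.1) of the others. With both cytokines the shares were 58.3% (46.1 to 69.8) and 77.4% (74.9 to 79.8) for *Defb1* and 5.56% (1.53 to 13.6) and 17.7% (15.5 to 20) for *Tnfrsf11b*. For *Rgs4* (38.9% and 43.8%), *Neurl3* (22.2% and 23.7%) and *Slc6a14* (4.17% and 4.6%) they lay within the intervals. With IFN-γ the shares of *Rgs4* (29.4% and 18.5%) and *Defb1* (23.5% and 17.0%) were higher in the *Hspa1a*-rich cells, with overlapping intervals.

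Related genes were read from lists beside the same comparison of both with IFN-γ in β-like cells, in which 5.56% of genes were at least 2-fold higher. Genes that passed 10 CPM only through the library in which they were high had to differ, so their number is given and nothing is read from the counts. Of 42 epithelial adhesion, junction and keratin genes, 25 passed 10 CPM, 7 were higher (2 of them past the level only with both) and 0 lower. They were led by *F11r* (junctional adhesion molecule A) at 5.89-fold (4.76 to 7.36), *Cgn* (cingulin, a tight junction protein) at 5.48-fold (4.87 to 6.18) and *Spint1* (a protease inhibitor of epithelia) at 4.08-fold (3.79 to 4.40). Of 23 antimicrobial and acute-phase genes, 6 passed the level and 5 were higher (4 only through the library with both), among them *Saa3* (serum amyloid A) with 1 UMI in IFN-γ-treated cells and 39.7 CPM under both, and *Lcn2* (lipocalin 2) at 11.9-fold (10.8 to 13.1).

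Of 22 ETS factors, 11 passed the level, 3 were higher (*Ehf*, *Elf3* at 4.59-fold and *Etv6* at 3.78-fold) and *Etv1* was lower at 0.225 (0.167 to 0.298), *Ehf* and *Etv1* having passed only through the higher library. *Elf3*, the epithelial relative of *Ehf*, was at 27.0, 151, 28.0 and 128 CPM in the 4 libraries. Of 19 RGS genes, 7 passed the level, *Rgs16* at 5.99-fold (4.48 to 8.16) and *Rgs4* were higher and *Rgs11* at 0.440 (0.372 to 0.518) was lower, *Rgs16* having passed only with both. Among 24 integrin and TGF-β activation genes, 9 passed and 4 were higher, *Itga3* at 2.51-fold, *Skil* (an inhibitor of SMAD signaling) at 2.25-fold, *Itgb8* and *Itgav* at 2.02-fold (1.87 to 2.19), *Itga3* having passed only with both. *Itgav* is the partner chain of *Itgb8*, and was at 46.5 CPM untreated, 197 CPM under IL-1β, 65.1 CPM under IFN-γ and 132 CPM under both.

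For the osteoprotegerin axis, 6 of 11 genes passed the level and 4 were higher, with *Fas* (a death receptor) at 37.0-fold (22.6 to 65.2) and *Tnfrsf12a* at 3.59-fold (3.03 to 4.28), *Fas* and *Tnfrsf11b* having passed only with both. Of the ligands of osteoprotegerin, *Tnfsf11* (RANKL) had no UMI in β-like cells of any library, and *Tnfsf10* (TRAIL) was at 3.47, 17.0, 123 and 78.5 CPM, highest with IFN-γ alone. Of 23 amino acid and osmolyte transporters, 13 passed, 3 were higher (*Slc6a14*, *Slc7a11* at 4.39-fold and *Slc6a8* at 3.28-fold) and 3 lower (*Slc7a2* at 0.259, *Slc7a8* at 0.271 and *Slc6a17* at 0.419), *Slc6a14*, *Slc7a11* and *Slc6a17* having passed only through the higher library. *Slc7a11*, the cystine transporter, was at 45.5 CPM under IL-1β and 16.7 CPM under both, a ratio of 0.366 (0.313 to 0.428).

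In the neuralized and Notch list, 7 of 18 genes passed, 3 were higher (*Neurl3*, *Neurl1a* at 5.63-fold and the Notch ligand *Dll1* at 4.07-fold) and *Notch1* was lower at 0.230 (0.157 to 0.33), all 4 having passed only through the higher library. *Neurl1a*, a paralog of *Neurl3*, was at 24.3 CPM under IL-1β and 25.4 CPM under both, a ratio of 1.04 (0.886 to 1.23), beside 6.09 for *Neurl3*. Of 9 CRISP and LCCL genes, *Crispld2* and *Glipr2* at 58.3-fold (26.6 to 160) passed, both only through the library with both cytokines. Of 30 IL-1 and NF-κB response genes, 25 passed and 20 were higher (11 only through that library), led by *Cxcl2*, *Icam1* and *Cxcl1*, and *Il1r1* was lower, while 9 of 27 IFN-γ response genes were higher (2 only through that library), led by *Cxcl9* and *Cxcl10*.

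Beside the comparison of both with IL-1β in β-like cells, where 2.41% of genes were at least 2-fold higher and 4.88% lower, *Neurl3* and *Rgs4* were the sole members of their lists past 2-fold in their direction. Of 7 RGS genes past the level *Rgs4* was the only one lower and none was higher, and of 6 neuralized and Notch genes *Neurl3* was the only one higher, with *Hes1* (a Notch target) at 0.326 (0.227 to 0.462) and *Mib1* (an E3 ligase of Notch ligands) at 0.477 (0.418 to 0.543) lower. Of 10 integrin and TGF-β genes 3 were lower, *Itgb8* together with *Itga2* at 0.384 (0.307 to 0.479) and *Itga6* at 0.472 (0.418 to 0.533). *Hes1* and *Itga2* had passed the level only through the IL-1β library. None of 10 ETS factors and neither CRISP and LCCL gene passed 2-fold.

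In the same comparison *Cldn4*, a tight junction claudin, at 2.21-fold (2.0 to 2.44) was the only 1 of 26 epithelial adhesion genes past 2-fold. Of 7 antimicrobial genes *Reg3b* at 5.55-fold (3.82 to 8.33) and *Nos2* at 4.56-fold (4.31 to 4.83) were higher, and *S100a9* at 0.295 (0.246 to 0.353) and *Saa1* at 0.422 (0.333 to 0.534) lower, *Reg3b* and *Saa1* having passed only through the higher library. Of 6 osteoprotegerin axis genes *Tnfsf10* was higher at 4.61-fold (3.91 to 5.47) and *Tnfrsf21* lower at 0.460 (0.374 to 0.566). Of 12 transporters *Slc38a4* at 0.309 (0.285 to 0.334) and *Slc7a11* were lower. The IL-1 and NF-κB list had 5 of 25 higher (2 past the level only with both) and *Il1r1*, the IL-1 receptor, lower at 0.361 (0.338 to 0.386), and the IFN-γ list 21 of 27 higher (7 only with both).

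The pattern of each gene over the 12 levels (3 endocrine classes in 4 libraries) was set against 10243 genes on the log2(CPM + 1) scale by Pearson's r. The 12 points share 4 libraries and their depths, so r is a description. The closest were *Ikbke* (0.97), *Litaf* (0.96) and *Sod2* (0.96) for *Defb1*, and *Icam1* (0.97), *Mxd1* (0.97) and *Tnfaip2* (0.96) for *Neurl3*. For *Tnfrsf11b* they were *Jak1*, *Gpcpd1* and *Coro1b* (each 0.97), for *Slc6a14* *Fam102a* (0.98), *Cfb* (0.97) and *Clint1* (0.96), and for *Ehf* *Rhoc* (0.97), *Tanc1* (0.96) and *Txn1* (0.96). *Itgb8* was closest to *Glis3* (0.95), *Abracl* (0.94) and *Golga4* (0.93), and *Crispld2* to *Il4i1* (0.92), *Alox12* (0.92) and *Atp6v1a* (0.91). *Rgs4* had the weakest matches, *Rrbp1* (0.89), *Elmod1* (0.87) and *Ang* (0.86). Between the 8 genes r was highest for *Defb1* and *Slc6a14* (0.92) and lowest for *Rgs4* and *Itgb8* (-0.21).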

How the data were processed

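Single-cell libraries of pooled mouse islets were analysed from the deposited raw UMI counts, which the authors made with Cell Ranger against mm10 per the labels, with a software version of 3.0.0 in the matrix headers and no normalization. The sources differ on the version of the reagent kit. Cells were kept between 200 and 4000 genes and up to a mitochondrial share of 12%. β-like cells had at least 5% insulin UMIs, α-like 3% glucagon, δ-like 1% somatostatin and PP-like 10% pancreatic polypeptide, each with limits on other hormones. δ-like cells still held *Ppy* (pancreatic polypeptide) at 24620 CPM, beside *Sst* (somatostatin) at 84537 CPM. Non-endocrine classes needed 4 to 8 detected markers. Cells with several hormones and unnamed cells were left out. No doublet caller was applied except as an alternative. Summed UMIs per class and library gave CPM with exact Poisson intervals, shares exact binomial (Clopper-Pearson) intervals, and ratios exact conditional binomial intervals, all at 95%, with a floor of 3 UMIs. Genes at 10 CPM or more in either library gave the percentages of all genes. Tests between conditions were not possible with 1 library each. The ratio and interval were tested on simulated data. The 8 genes and the gene lists were chosen with earlier results of these data known. The genes named are the 8, the 3 most alike each, and from each list up to 3 with the largest ratio in each direction past 2-fold, plus partners of the 8. Positions are from GENCODE M21 (31011 of 31053 identifiers matched) and promoters from RefSeq. Reads are tags of transcript ends, so levels of the 8 genes were not compared with each other. The alternatives were thinning to 4000 UMIs, dropping the upper limit on genes, a 20% mitochondrial limit, a leading hormone of at least 95% of hormone UMIs, hormone genes left out of the totals, scaling by the median gene-wise ratio, equal weight for every cell, removal of Scrublet doublets, removal of cells with at least 10 *Hspa1a* UMIs per 10000, and a level filter of 5 CPM or none. Python 3.11.15, numpy 2.4.6, scipy 1.17.1, pandas 2.3.3, scanpy 1.11.5 and matplotlib 3.10.9 were used.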

Additional observations from a re-analysis of the deposited data

Results flagged for a closer look

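Cells above the limit of 4000 detected genes, which entered only the alternative without that limit, also carried the genes. In the 43 such β-like cells of the IL-1β library the 8 genes summed to 2025 CPM (1925 to 2129), against 91.2 CPM (86.8 to 95.6) in the 623 of the untreated library and 1787 CPM in the kept IL-1β cells.

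*Rgs4* moved in opposite directions in δ-like and β-like cells. Its ratio of both to untreated was 0.289 in δ-like and 6.06 in β-like cells, and that of both to IFN-γ was 0.261 and 3.46. Of all genes in δ-like cells, 22.0% and 16.7% were at least 2-fold lower in these comparisons. With a somatostatin share of at least 95% of hormone UMIs, *Rgs4* had no UMI in untreated δ-like cells or those with both. Its ratio of both to IFN-γ was then only a bound, at most 0.835. *Ehf* also moved in opposite directions with both against IL-1β, at 1.22 in δ-like and 0.589 in β-like cells. The δ-like *Ehf* ratio was 0.991 at that somatostatin share. Each condition had 1 library, so these differences between classes were not tested.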

How the results depend on the processing

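Changes in the counts of the 8 genes at least 2-fold higher or lower in β-like cells are given here. Without a level filter, *Slc6a14*, *Tnfrsf11b* and *Neurl3* were added to *Defb1* for IFN-γ against untreated. They rest on 0 and 6, 27 and 41, and 4 and 20 UMIs in the untreated and IFN-γ libraries. Nothing is read from this addition. For IFN-γ against untreated, the number higher went from 1 to 0 with hormone genes left out of the totals and with scaling by the median gene-wise ratio, where *Defb1* was at 1.93-fold and 1.90-fold. For both against IL-1β, the number lower went from 2 to 1 with hormone genes left out and to 0 with the median scaling. It went to 3, *Slc6a14* being added, with no upper gene limit, with a 20% mitochondrial limit, with thinning and without cells rich in *Hspa1a*. Of 964 ratios of single genes over β-like, α-like and δ-like cells and the alternatives, 842 lay within the main counting interval, 122 outside it, and 0 of the called ratios turned direction. *Itgb8* with both against IFN-γ was at 1.91-fold after thinning, which left 7 of the 8 genes at least 2-fold higher. A leading hormone of at least 95% left 1 untreated δ-like cell, so ratios against it are bounds or rest on that cell, and in 20 δ-like cells with IFN-γ and 18 with both *Rgs4* had 5 and 0 UMIs. Outside β-like cells, ratios or bounds past 2-fold also fell below it, these being examples. α-like *Defb1* with IFN-γ was at 1.74-fold with equal cell weights, δ-like *Ehf* with IL-1β at 1.38-fold with the 95% limit, and δ-like *Neurl3* with IFN-γ at a bound of 1.49-fold after thinning. Thinning took the bounds of δ-like *Crispld2* with IL-1β and of α-like *Tnfrsf11b* with both against untreated to 1.19. The 95% limit took the δ-like *Tnfrsf11b* ratio of both to IFN-γ from 13.9 to a bound of 1.86. Scrublet called 0.910% of the kept cells. Low counts in α-like, δ-like and ductal-like cells limit ratios of *Crispld2*, *Slc6a14* and *Tnfrsf11b*. No paired analysis was possible because each condition had 1 library.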
